A study of Homo sapiens with 8 samples.

Results

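HOX genes encode homeodomain transcription factors, and in mammals they lie in 4 clusters named HOXA, HOXB, HOXC and HOXD. All protein-coding genes whose symbol is HOXA, HOXB, HOXC or HOXD followed by a number were taken, by symbol alone. They were 39 of the 24630 rows of the count table, which held 23375 named genes and the RefSeq accessions that matched no name. There were 11 HOXA genes (chr7:27132612-27239710), 10 HOXB genes (chr17:46605888-46806112), 9 HOXC genes (chr12:54332615-54449814) and 9 HOXD genes (chr2:176957449-177055635), with coordinates in GRCh37, the same assembly as hg19.

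The cells were PC9R and PC9, both human lung adenocarcinoma lines grown in DMEM and used at passages 8 to 12. PC9 cells depend on a mutated, constantly active EGFR and respond to gefitinib, an inhibitor of the EGFR kinase, and PC9R was obtained by screening PC9 with gefitinib for 1 to 2 weeks. Each line had 2 RNA-seq libraries, 1 list of DNase hypersensitive sites (DHS) and 1 list of H3K4me2 ChIP-seq peaks. No PC9 library had a gefitinib exposure in the labels, so an effect of the drug and a difference between the lines cannot be told apart, and the sources used here do not say whether PC9R is a clone. The labels do not say that both RNA libraries of a line came from different cultures, so a p-value here reflects the spread between these 4 libraries alone, and that spread may be technical.

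Within a cluster, HOX genes are expressed in the order of their position, from the 3′ genes (low numbers) in anterior parts of the embryo to the 5′ genes (high numbers) in posterior parts. Genes with the same number in different clusters are paralogues and bind related DNA sites, often together with TALE homeodomain cofactors of the PBX and MEIS families. Polycomb complexes keep silent HOX genes off through H3K27 methylation, and Trithorax (MLL) complexes keep active ones on through H3K4 methylation. H3K4me2 is found at promoters and enhancers, and DHS mark open chromatin. In the adult lung the more anterior HOXA and HOXB genes are the ones mainly expressed, and posterior HOX genes are often expressed out of place in tumours.

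The RNA libraries held 32502455 (first) and 16715426 (second) counts in PC9R, against 32515891 and 16013058 in PC9, so 3 counts stood for 0.0923 and 0.1795 CPM in PC9R and 0.09226 and 0.1873 CPM in PC9. Levels below are CPM, counts scaled to library size, normalized by TMM. The main test was edgeR's quasi-likelihood test over 12660 genes, of which 32 passed (24 higher and 8 lower in PC9R). The second libraries differed from the first in both lines, and these differences correlated across genes between the lines (r = 0.788, a description over 12660 genes that share libraries). The same test was therefore also given with library number, first or second, in the model, where 2631 genes passed. That model leaves 1 residual degree of freedom, so most of the information on spread behind its p-values comes from other genes. The epithelial markers summed to 18800 and 10800 CPM in PC9R and 24200 and 10600 CPM in PC9 over 6 of 6 genes. CDH1, with a main-test log2 fold change of 0.66, was higher in PC9R with library number. EPCAM, KRT7, KRT8, KRT18 and KRT19 did not pass, with main-test log2 fold changes of -0.39, -0.27, -0.83, -0.65 and -0.15. Of 5 lung adenocarcinoma markers, SFTPA1 and SFTPC had 0 counts in every library and NKX2-1 had 1 count in all 4 together. SFTPB had 9 and 1 counts in PC9R and 1 and 0 in PC9, and NAPSA, the only one of the 5 tested, had 2.02 and 0.713 CPM in PC9R and 0.909 and 0.4 CPM in PC9 (log2 fold change 1.04, SE 0.82, edgeR adjusted p = 0.999).

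Most HOX genes were low or silent in these cells, and the expressed ones came from HOXA, HOXB and HOXC. In bulk libraries such as these, fewer expressing cells and less RNA per cell cannot be told apart. Of the 39 genes, 29 had a count in some library and 20 passed the filter on low counts (7 HOXA, 6 HOXB, 7 HOXC and 0 HOXD). A mean of 1 CPM or more was reached by 15 genes in PC9R and 14 in PC9. All 9 HOXD genes and HOXB1 had 0 counts in every library, which allows up to 3 counts per library. The other 9 genes left out by the filter, HOXB4 and HOXB9 among them, had between 0 and 27 counts per library. Several of the genes, HOXA3, HOXC4 and HOXC6 among them, have 2 accessions each and HOXD8 has 3, and since it is not known how reads shared by accessions were assigned, low values of these genes are not read as low expression.

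Per length of the canonical transcript (RPKM), HOXB7 led in PC9R and HOXC13 stood first in PC9. HOXB7, a mid-cluster gene, had 44.9 and 41.7 RPKM in the PC9R libraries, above HOXC13 at 16.2 and 8.25 RPKM with no overlap. In PC9, HOXC13 had 39.2 and 33.4 RPKM and HOXB7 35.7 and 32.8 RPKM, so these neighbours overlapped. Below HOXC13 in PC9R came HOXB6, HOXC9, HOXC11, HOXA5 and HOXB5, with means between 7.45 and 5.11 RPKM, and each overlapped the next. Below HOXB7 in PC9 came HOXC11 at 12 and 11.2, HOXA5 at 8.26 and 10.2 and HOXC9 at 7.98 and 5.61 RPKM, none of which overlapped its neighbours in the order. The anterior genes most expressed per length were HOXB3 in PC9R, with a mean of 2.55 RPKM, and the same gene in PC9, with 2.91 RPKM.

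**Figure D1:**
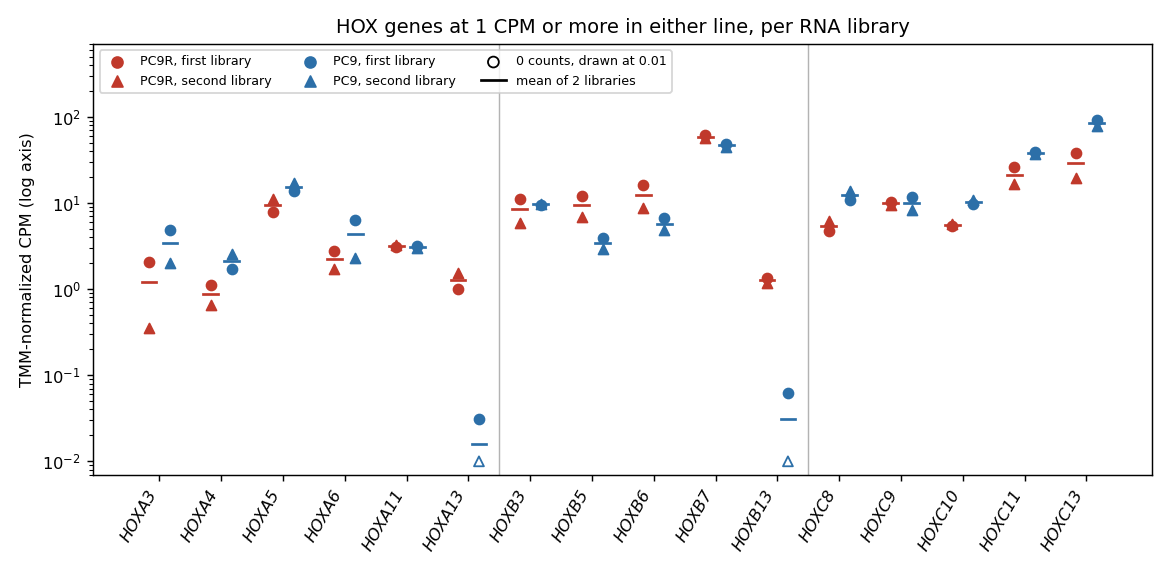
TMM-normalized CPM (log axis) of the 16 HOX genes with a mean of 1 CPM or more in either line, by RNA library. Circles are first and triangles second libraries, PC9R left of PC9, and dashes are means of 2 libraries, with hollow markers for 0 counts; HOXA13 and HOXB13 had at most 2 counts in a PC9 library, and the PC9R points of HOXC8, HOXC10, HOXC11 and HOXC13 all lie below the PC9 points.

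In the main test, 0 of the 20 tested HOX genes passed in edgeR, beside a background of 0.253% of all tested genes (0.19% higher and 0.0632% lower), and 4 had an unadjusted p under 0.05 (background 7.27%). The smallest adjusted p was 0.0982, for HOXA13. DESeq2 called 2 of the 23 HOX genes to which it gave an adjusted p, HOXA13 and HOXB13, both higher in PC9R (background 2.75% of 13685 genes, 1.89% higher). Limma-voom called 0 of 20 (background 0.577%, 0.427% higher). With library number in the edgeR model, 10 of 20 passed, 5 higher (background 11.2%) and 5 lower (background 9.57%). The higher ones were HOXA13, HOXB5, HOXB6, HOXB8 and HOXB13, and the lower ones HOXA3, HOXC8, HOXC10, HOXC11 and HOXC13. Of the higher ones, HOXA13, HOXB8 and HOXB13 had at most 3 counts in a PC9 library. They passed the filter on low counts through PC9R alone, so they could enter the edgeR tests only by being higher in PC9R. The share of higher genes is therefore not independent of the filter. In 6 genes both PC9R libraries exceeded both PC9 libraries (background 16.9%), and in 6 they lay below both (background 14.9%). PC9R was higher within the first and within the second libraries for 6 genes (background 36.6%) and lower within both for 8 (background 37.4%). The median log2 fold change was -0.14 over the 20 HOX genes and -0.01 over all tested genes.

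By cluster, the genes called with library number in the model were 4 higher and 0 lower of 6 tested in HOXB. They were 0 higher and 4 lower of 7 in HOXC, and 1 higher and 1 lower of 7 in HOXA. Over all tested genes 11.2% were higher and 9.57% lower. A difference between clusters was not tested. The median log2 fold change was 1.30 over the 6 tested HOXB genes, with 5 of 6 higher without overlap (background 16.9%). It was -0.83 over the 7 HOXC genes, with 4 of 7 lower without overlap (background 14.9%). Over the 7 HOXA genes it was -0.70, with 1 higher and 2 lower. The HOXB counts and median include HOXB8 and HOXB13, which passed the filter on low counts through PC9R alone. Their higher direction was thus fixed in advance, and the same holds for HOXA13 in HOXA. Summed over HOXB, levels were 104 and 80.8 CPM in PC9R, against 69.6 and 62.7 CPM in PC9. Summed over HOXC, they were 86.3 and 58.6 CPM in PC9R and 166 and 149 CPM in PC9, and over HOXA 18.9 and 20.7 CPM in PC9R and 31.6 and 28.5 CPM in PC9. For none of these 3 sums did the lines overlap, but single genes made up much of them. HOXB7 alone had 61.2 and 56.8 CPM in PC9R and 48.7 and 44.7 CPM in PC9. HOXC13 alone had 38.1 and 19.4 CPM in PC9R and 92.4 and 78.6 CPM in PC9. With 2 libraries a line, a two-sided exact permutation test of a sum cannot give a p below 0.333.

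**Figure D2:**
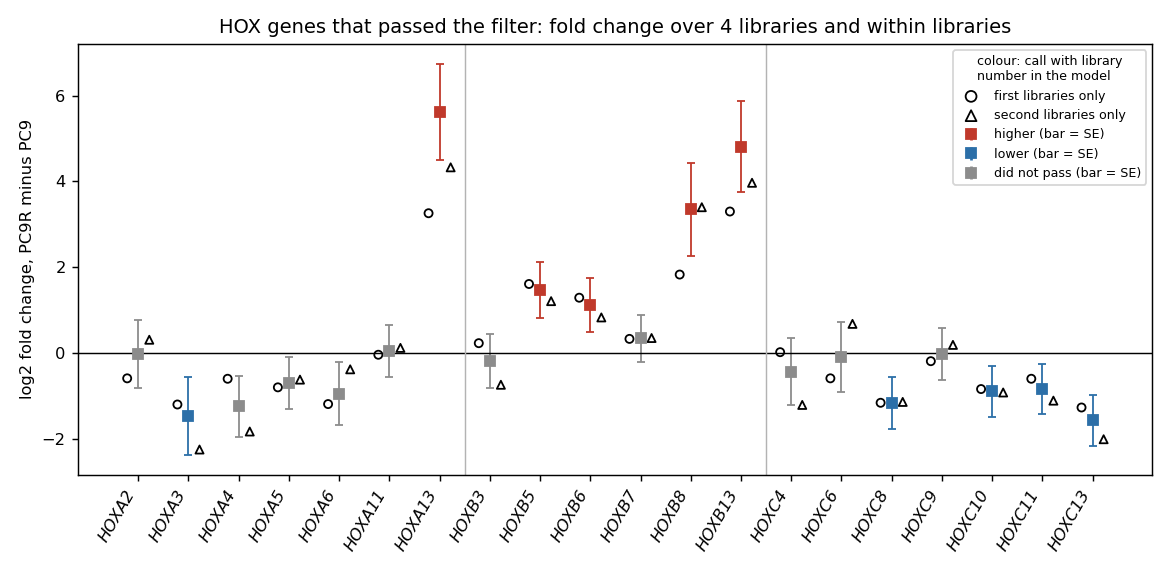
Log2 fold change (PC9R minus PC9) of the 20 HOX genes that passed the filter, from edgeR over 4 libraries (squares, bar = SE) and within first (circles) and second libraries (triangles). Colour marks the call with library number in the model. Of the HOXB genes 4 were called higher and 0 lower, and of the HOXC genes 0 higher and 4 lower (background 11.2% higher and 9.57% lower). The fitted values of HOXA13, HOXB8 and HOXB13 depend on the prior count, since PC9 had 1 to 3 counts of each.

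The genes of paralogue group 13, the most 5′ and most posterior of each cluster, included HOXA13 and HOXB13, which had few counts in PC9, but did not share a direction. HOXA13, which patterns limbs and the hindgut and urogenital tract, had 35 and 26 counts in PC9R (0.997 and 1.55 CPM), against 1 and 0 counts in PC9 (0.0314 and 0 CPM). The counts differed by a ratio of 55 per library size (95% exact interval 9.52 to 2210, counting error only), and the edgeR adjusted p was 0.0982 in the main test and 0.00364 with library number in the model. HOXB13, a prostate and hindgut lineage factor, had 47 and 20 counts in PC9R (1.34 and 1.19 CPM) and 2 and 0 counts in PC9 (0.0627 and 0 CPM). Its ratio was 30.2 (8.05 to 255), with an edgeR adjusted p of 0.138 in the main test and 0.00436 with library number. The intervals of both ratios overlapped, so their order is not determined. Both PC9R libraries stood above both PC9 libraries for each gene, although the PC9R levels were low.

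HOXC13, known for its part in hair and nail formation, went the other way. It had 38.1 and 19.4 CPM in PC9R, against 92.4 and 78.6 CPM in PC9. Both PC9R libraries were below both PC9 libraries, at a mean of 28.8 ± 13.2 CPM in PC9R and 85.5 ± 9.72 CPM in PC9 (SD, n = 2 each). The log2 fold change was -1.57 (SE 0.60, edgeR adjusted p = 0.549) in the main test, and -1.64 (SE 0.25, edgeR adjusted p = 0.00358) with library number in the model. It was -1.27 within the first and -2.01 within the second libraries. The antisense RNA HOXC13-AS overlaps 7.3% of the canonical HOXC13 exons and had 32.1 and 15.5 CPM in PC9R, against 10.2 and 5.34 CPM in PC9 (with library number, edgeR adjusted p = 0.0033 at a log2 fold change of 1.60, SE 0.24, and 0.661 without). The sources used here do not give the strand setting of the counting, so reads of the overlap cannot be told apart. HOXD13 had 0 counts in every library.

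As an example of a gene with few counts in PC9, the 250 bases upstream of the canonical start of HOXA13 are shown, from the GRCh37 reference and read 5′ to 3′ on the strand of the gene. They lie on the minus strand at chr7:27239711-27239960. Capitals mark GC boxes (GGGCGG) and CCAAT boxes (CCAAT) on either strand.
HOXA13 upstream: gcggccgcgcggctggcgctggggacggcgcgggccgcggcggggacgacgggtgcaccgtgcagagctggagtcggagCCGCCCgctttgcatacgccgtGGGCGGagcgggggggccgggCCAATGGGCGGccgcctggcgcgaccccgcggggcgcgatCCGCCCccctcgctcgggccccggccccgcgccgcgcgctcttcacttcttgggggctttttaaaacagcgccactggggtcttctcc
The HOXA13 window held 4 GC boxes and 1 CCAAT box next to one of them, in a sequence of 78% GC with 40 CpG. Of all 18977 upstream windows of the same length, 59.5% held a GC box and 34% a CCAAT box. The HOXA13 window did not hold TATAAA (9.28% of windows), the HOX-PBX sequence TGATTNAT (1.67%), the AP-1 sequence TGANTCA (4.63%) or the CTCF core, CC, any 3 bases, AG, any 2 bases and GGC (11.2%). The AP-1 and HOX-PBX sequences can overlap each other.

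The neighbouring genes HOXB5 and HOXB6 were higher in PC9R together. HOXB5, a gene that acts in branching of the embryonic lung, had 12.1 and 6.9 CPM in PC9R, against 3.92 and 2.94 CPM in PC9. Its log2 fold change was 1.47 (SE 0.65, edgeR adjusted p = 0.699), and 1.45 (SE 0.28, edgeR adjusted p = 0.00993) with library number, at 1.61 within the first and 1.21 within the second libraries. HOXB6 had 16.3 and 8.62 CPM in PC9R, against 6.65 and 4.8 CPM in PC9, with a log2 fold change of 1.12 (SE 0.64, edgeR adjusted p = 0.893), and 1.09 (SE 0.26, edgeR adjusted p = 0.0232) with library number, at 1.29 within the first and 0.83 within the second libraries. In both genes every PC9R library exceeded every PC9 library, and the first PC9R library stood highest. HOXB6 shares 29.4% of its canonical exons with HOXB3 and HOXB-AS3, so part of its reads cannot be told apart from theirs.

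HOXB8, a trunk gene that in mice is also known from myeloid leukaemia, had 19 and 13 counts in PC9R and 3 and 0 counts in PC9. The ratio was 9.63 (95% exact interval 3.01 to 49.1), with an edgeR adjusted p of 0.372 in the main test and 0.033 with library number. HOXB7, the most expressed HOXB gene per length, had 61.2 and 56.8 CPM in PC9R, against 48.7 and 44.7 CPM in PC9. The libraries did not overlap, but the log2 fold change of 0.34 (SE 0.54, edgeR adjusted p = 0.999) did not pass, nor with library number (SE 0.20, edgeR adjusted p = 0.276). HOXB3 had 11 and 5.83 CPM in PC9R and 9.38 and 9.81 CPM in PC9, and the lines overlapped. HOXB4 and HOXB9, not tested, had mean levels of 0.563 and 0.42 CPM in PC9R, against 0.239 and 0.241 CPM in PC9, and HOXB2 had 0.057 CPM in PC9R and 0.161 CPM in PC9.

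In HOXC, 4 of 7 tested genes, HOXC8, HOXC10, HOXC11 and HOXC13, were lower in PC9R with library number in the model (background 9.57%). HOXC11 had 25.8 and 16.8 CPM in PC9R, against 39.2 and 36.5 CPM in PC9 (log2 fold change -0.83, SE 0.58, edgeR adjusted p = 0.981, and adjusted p = 0.0356 with library number). HOXC10 had 5.41 and 5.65 CPM in PC9R, against 9.75 and 10.7 CPM in PC9 (log2 fold change -0.89, SE 0.59, edgeR adjusted p = 0.966, and 0.0413 with library number). HOXC8 had 4.73 and 6.18 CPM in PC9R, against 10.7 and 13.7 CPM in PC9 (log2 fold change -1.16, SE 0.61, edgeR adjusted p = 0.827, and 0.0149 with library number). Like HOXC13, these genes were lower in PC9R within the first and within the second libraries, with log2 fold changes of -0.60 and -1.11 for HOXC11, -0.84 and -0.92 for HOXC10, and -1.16 and -1.14 for HOXC8. HOXC9 lies between HOXC10 and HOXC8, and had 10.3 and 9.45 CPM in PC9R and 11.8 and 8.28 CPM in PC9, with overlapping lines and a log2 fold change of -0.02 (SE 0.60). HOXC4 and HOXC6 passed the filter with fold changes of -0.44 and -0.09 on the log2 scale, and HOXC5 and HOXC12 were not tested.

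HOXA5, a gene needed for lung development in mice, was the most expressed HOXA gene per length in both lines. It had 7.89 and 11.1 CPM in PC9R, against 13.8 and 17.1 CPM in PC9, without overlap, and its log2 fold change of -0.70 (SE 0.60, edgeR adjusted p = 0.999) did not pass with library number either (edgeR adjusted p = 0.0665). HOXA3, a pharyngeal and thymus patterning gene, had 2.05 and 0.357 CPM in PC9R and 4.83 and 2 CPM in PC9. Its lines overlapped, and the log2 fold change was -1.47 (SE 0.91, edgeR adjusted p = 0.927) in the main test, between -3.25 and -0.71 when 1 library was left out. With library number it was -1.61 (SE 0.40, edgeR adjusted p = 0.0246), at -1.20 within the first and -2.25 within the second libraries. As HOXA3 has 2 accessions, this compares only the reads counted. HOXA4 had 1.11 and 0.654 CPM in PC9R, against 1.72 and 2.54 CPM in PC9, without overlap (log2 fold change -1.24, SE 0.71, edgeR adjusted p = 0.883, and 0.0916 with library number). HOXA6 had 2.76 and 1.72 CPM in PC9R and 6.4 and 2.27 CPM in PC9, and HOXA11 had 3.08 and 3.27 CPM in PC9R and 3.17 and 3 CPM in PC9, and both overlapped. HOXA2 had a mean of 0.97 CPM in PC9R and 0.975 CPM in PC9. HOXA-AS3 overlaps 74.8% of the canonical exons of HOXA7, which had at most 7 counts in a library, and 21.1% of those of HOXA6. HOXA11-AS overlaps 27.2% of those of HOXA11, and reads of these overlaps cannot be told apart.

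H3K4me2 covered the clusters more densely than the genome, and except in HOXD it did so in shorter pieces in PC9R. Each mark had 1 library per line, so peak differences between the lines could not be checked against replicates and were not tested. In PC9R 71 H3K4me2 peaks covered 43.4 kb, or 8.3% of the 523 kb of the clusters, against 48 peaks covering 62.8 kb, or 12%, in PC9. The whole lists covered 1.95% of the genome in PC9R and 2.31% in PC9. Over HOXC the share was 11.1% in PC9R (21 peaks) and 24.5% in PC9 (22 peaks), and over HOXA 7.92% in PC9R (15 peaks) and 14.6% in PC9 (11 peaks). Over HOXB it was 7.6% in PC9R (24 peaks) and 6.81% in PC9 (9 peaks), and over HOXD 6.81% in PC9R (11 peaks) and 4.96% in PC9 (6 peaks). The median width of the HOX peaks was 509 bp in PC9R and 1126 bp in PC9, while over the whole lists it was 395 bp in PC9R and 546 bp in PC9. In HOXD alone the median was larger in PC9R, at 597 bp against 531.5 bp in PC9. Of the HOX peaks, 60 of 71 in PC9R overlapped a PC9 peak by at least 1 bp and 37 of 48 in PC9 overlapped a PC9R peak, but 20 in each line did so over 50% of both widths.

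The widest H3K4me2 peak of each cluster was wider in PC9 than in PC9R. Over HOXC the widest PC9R peak had 1817 bp at HOXC9 (chr12:54388596-54390412), and the widest PC9 peak had 4721 bp over the start and exons of HOXC11 (chr12:54365121-54369841). At HOXC11 itself PC9R had 4 separate peaks of 264 to 987 bp within that span. Over HOXB the widest PC9R peak had 2123 bp in exons of HOXB6 and HOXB3 (chr17:46679751-46681873), against 4400 bp over HOXB7 and HOXB8 (chr17:46686751-46691150) in PC9. Over HOXA the widest peak had 1249 bp between HOXA7 and HOXA9 in PC9R (chr7:27200119-27201367) and 4109 bp in an intron of a HOXA3 transcript in PC9 (chr7:27154536-27158644). In the HOXD cluster the widest peak of both lines lay between HOXD13 and HOXD12, with 1496 bp in PC9R (chr2:176961408-176962903) and 1656 bp in PC9 (chr2:176961295-176962950).

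**Figure D3:**
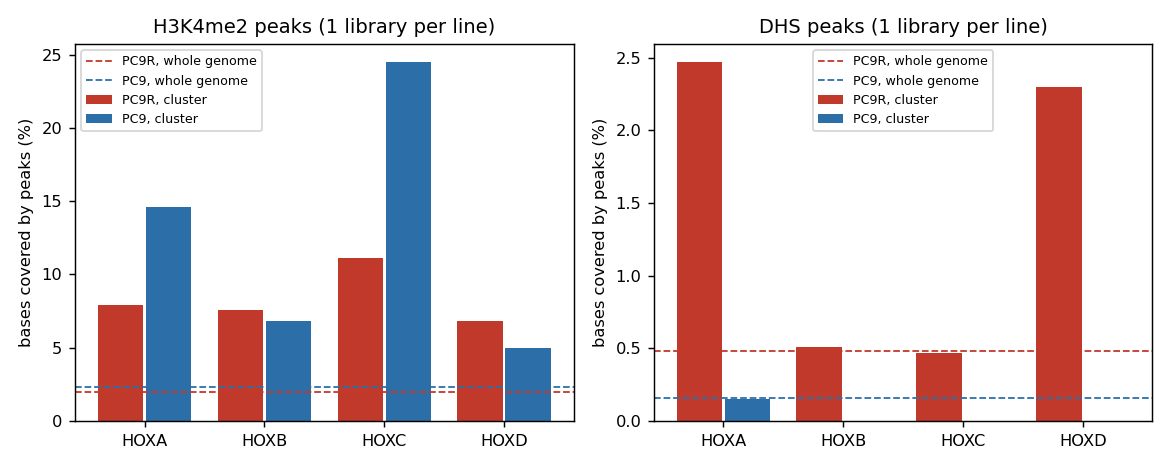
Bases of each HOX cluster covered by H3K4me2 peaks (left) and DHS peaks (right), in percent, for PC9R (left bars) and PC9 (right bars), with dashed lines at the share of the whole genome. All 8 H3K4me2 bars exceed the genome share of their line, and the HOXC bars stand at 11.1% in PC9R and 24.5% in PC9.

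Within 1 kb of the start sites, the same genes carried H3K4me2 in both lines, while at some other settings the counts differed between them. A peak lay within 1 kb of an annotated start in 24 of 39 HOX genes in PC9R (background 75% of 20163 protein-coding genes) and in 24 in PC9 (background 71%). These were 24 genes with a peak in both lines (background 70.1%), 0 in PC9R only (background 4.82%) and 0 in PC9 only (background 0.843%). The genes with a peak numbered 23 in PC9R and 22 in PC9 within 0.5 kb, 30 in PC9R and 28 in PC9 within 2.5 kb, and 23 in PC9R and 20 in PC9 in the higher-scored part of each list. They numbered 19 in each line at outermost coding starts only, and 24 in each line with lists set to equal numbers. Within 1 kb the genes were 9 of 9 in HOXC, 6 of 11 in HOXA (HOXA3, HOXA6, HOXA9, HOXA10, HOXA11 and HOXA13), 6 of 10 in HOXB (HOXB3, HOXB6, HOXB7, HOXB8, HOXB9 and HOXB13) and 3 of 9 in HOXD (HOXD1, HOXD8 and HOXD11). Annotated starts of neighbouring HOX transcripts lie close together, so 1 peak can serve several genes. HOXA5 and HOXB5 were expressed with no H3K4me2 peak within 1 kb of a start in either line, and HOXD1, HOXD8 and HOXD11 had such a peak at 0 counts. For HOXD8 the 0 counts are not read as low expression, as stated above.

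Within 2.5 kb of the canonical starts, the length covered by H3K4me2 was larger in PC9R for 8 genes and smaller for 16, and for 15 it was 0 bp in both lines. In HOXC it was larger for 0, smaller for 7 and 0 bp in both lines for 2 of 9 genes. The summed length was 8260 bp in PC9R and 16176 bp in PC9. At HOXC13 the covered length was 1381 bp in PC9R and 2977 bp in PC9, and at HOXC11 1985 bp in PC9R and 4290 bp in PC9. At HOXC9, whose RNA overlapped between the lines, it was 645 bp in PC9R and 2860 bp in PC9. At HOXA13 it was 932 bp in PC9R and 297 bp in PC9, and at HOXB13 1377 bp in PC9R and 1129 bp in PC9, while the called genes HOXB6 and HOXB8 had less in PC9R (2819 and 556 bp in PC9R, against 3394 and 997 bp in PC9). The HOXB13 peak in PC9R ranked 3211 of 117861 by the authors' score in its list, and that in PC9 ranked 49500 of 85246. Ranks in lists of different lengths show no change. Genes with a larger or smaller covered length were not counted over all genes, so the HOX counts have no background. Over the whole H3K4me2 lists the median peak width was 395 bp in PC9R and 546 bp in PC9.

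**Figure D4:**
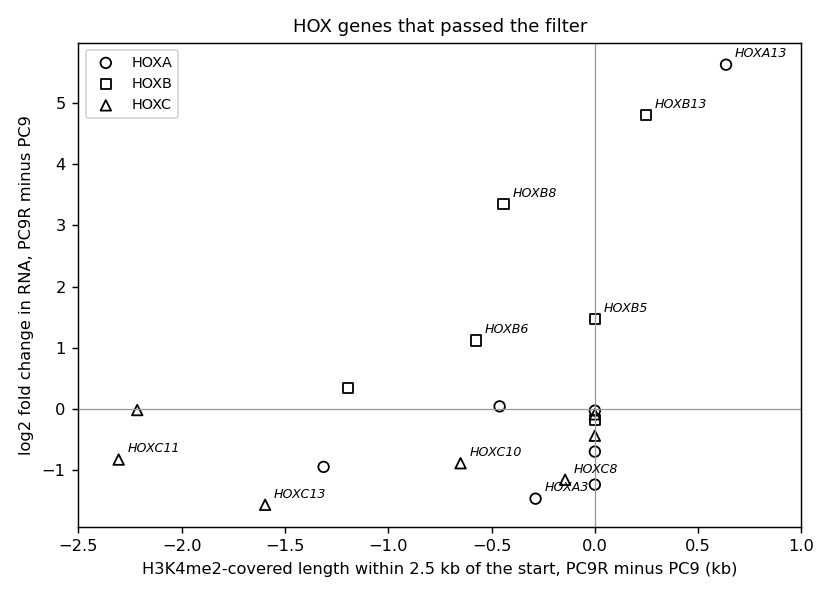
Length covered by H3K4me2 within 2.5 kb of the canonical start (PC9R minus PC9, in kb) against the log2 fold change in RNA (PC9R minus PC9) for the 20 HOX genes that passed the filter, with names for the 10 called with library number in the model. The points at the upper right are HOXA13 and HOXB13, HOXC11 and HOXC13 lie at the lower left, and HOXB6 and HOXB8 lie at the upper left.

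Nearly all DHS of the HOX clusters were in the PC9R list, where they covered HOXA and HOXD more densely than the genome. PC9R had 26 DHS over the clusters (1.24% of their bases, against 0.482% of the genome), and PC9 had 1 (0.0314%, against 0.161% of the genome). By cluster, the PC9R sites covered 2.47% of HOXA and 2.3% of HOXD. They covered 0.508% of HOXB and 0.468% of HOXC, near the share of the genome. The lists held 59600 DHS in PC9R and 19648 in PC9, and 19 of the 26 PC9R sites were at or below the median score of their list. With the PC9R list held to its 19648 highest scores, 3 of the 26 sites were left, covering 0.156% of the clusters and 0.185% of the genome. The PC9R sites were 11 in HOXA, 3 in HOXB, 3 in HOXC and 9 in HOXD, and 0 of 26 overlapped a PC9 site. In HOXD, where no gene had a count, 4 of 9 lay in H3K4me2 peaks of PC9R, as did 2 of 11 in HOXA, 1 of 3 in HOXB and 0 of 3 in HOXC.

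A DHS lay within 1 kb of a start in 10 HOX genes in PC9R (background 47.5%) and in 1 in PC9 (background 35.1%). All 10 were in PC9R only (background 19.7%), HOXA6 was in PC9 only (background 7.31%) and 0 were in both (background 27.8%). HOXA2, HOXA4, HOXA11, HOXB7, HOXC4 and HOXC10 were among the 10 genes, as were HOXD1, HOXD12 and HOXD13, which had 0 RNA counts. Of the genes called with library number, HOXC10 was the only one among them, with a DHS of 200 bp in an exon (chr12:54379052-54379251) and lower RNA in PC9R. The DHS of HOXA6 in PC9 (chr7:27190178-27190341) lay 37 bp from an annotated start, inside an H3K4me2 peak. For 28 of the 39 HOX genes neither line had a DHS at a start, HOXC13, HOXC11 and HOXC9 among them.

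The highest-scored DHS of the clusters in PC9R lay between HOXD13 and HOXD12, at chr2:176962103-176962468, inside the H3K4me2 peak named above. It ranked 5285 of 59600 in its list. Another, at chr2:177005420-177005765, lay in an intron of a HOXD3 transcript, also inside H3K4me2. The highest-scored sites of the other clusters were chr7:27142523-27142744 near the start of HOXA2, chr17:46755564-46756122 between HOXB13 and the other HOXB genes, and chr12:54441516-54441689 in an exon of a HOXC4 transcript. The central 300 bases of both HOXD sites are shown, since HOXD is the cluster that had peaks and 0 counts. They are from GRCh37, plus strand, at chr2:176962136-176962435 and chr2:177005443-177005742, with capitals for matches to the motifs named above.
HOXD DHS: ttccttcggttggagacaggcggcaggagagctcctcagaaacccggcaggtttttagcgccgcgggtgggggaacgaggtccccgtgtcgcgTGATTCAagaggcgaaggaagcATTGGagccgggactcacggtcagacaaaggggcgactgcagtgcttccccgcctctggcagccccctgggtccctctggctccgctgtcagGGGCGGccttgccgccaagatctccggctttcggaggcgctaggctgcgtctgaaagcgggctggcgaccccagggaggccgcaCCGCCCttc
HOXD3 intron DHS: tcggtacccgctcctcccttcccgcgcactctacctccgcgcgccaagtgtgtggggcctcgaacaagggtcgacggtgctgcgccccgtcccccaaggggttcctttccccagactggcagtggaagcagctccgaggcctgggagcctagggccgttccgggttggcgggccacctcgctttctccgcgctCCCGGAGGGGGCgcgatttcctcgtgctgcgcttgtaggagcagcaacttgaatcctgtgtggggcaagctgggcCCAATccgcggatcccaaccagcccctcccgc
The HOXD site held 1 AP-1 sequence (6.6% of 58125 DHS windows of the same length), 1 CCAAT box (26.2%) and 2 GC boxes (22.3%). The HOXD3 site held 1 CTCF core (7.64%) and 1 CCAAT box. CTCF is an insulator protein that bounds domains in HOX clusters. Neither window held the HOX-PBX sequence (1.63%) or TATAAA (6.97%). Both were rich in CpG, with 26 in the HOXD site and 27 in the HOXD3 site.

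Among the non-coding RNAs of the clusters, 19 of 24 were in the table and 6 were tested. In the main edgeR test 0 of them passed (background 0.253%) and 2 had an unadjusted p under 0.05 (background 7.27%). DESeq2 and limma-voom called 0 of them. With library number 1 was higher (background 11.2%) and 1 lower (background 9.57%). HOXC13-AS was the higher one. HOTAIR, a HOXC antisense RNA that binds Polycomb, had 0.598 and 0.357 CPM in PC9R, against 1.94 and 2 CPM in PC9, without overlap (log2 fold change -2.01, SE 0.72, edgeR adjusted p = 0.473, and adjusted p = 0.0154 with library number). HOTAIR lies between HOXC12 and HOXC11 and was lower in PC9R like the posterior HOXC genes called, whereas HOXC13-AS was higher. Of the 24 genes flanking the clusters, 17 were tested. In the main edgeR test 0 passed, 0 had an unadjusted p under 0.05, and DESeq2 and limma-voom called 0. With library number 0 were higher (background 11.2%) and 2 lower (background 9.57%), ATP5MC1 beside HOXB and CBX5 beside HOXC. In the main test their median log2 fold change was 0.04, against -0.01 over all tested genes, and that of the 6 non-coding RNAs was -0.27.

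With library number in the model, Polycomb genes and Trithorax genes and demethylases passed in both directions. TALE cofactors (1 of 4 tested) and cohesin genes with CTCF (2 of 11 tested) passed only as lower in PC9R, too few to read a direction from. Whether the counts differ from the share over all tested genes was not tested. The counts that follow are with library number in the model, where the background was 20.8% of all tested genes (11.2% higher and 9.57% lower). In the main edgeR test 0 of these TALE, Polycomb, Trithorax and cohesin genes passed (0 at an unadjusted p under 0.05, and 0 in DESeq2 or limma-voom). Of 4 tested TALE cofactors 0 were higher and 1 was lower, MEIS2, at 1.03 and 0.654 CPM in PC9R, against 2.26 and 2.74 CPM in PC9 (log2 fold change -1.51, edgeR adjusted p = 0.0307). Of 27 Polycomb genes 2 were higher and 2 lower. The lower ones were BMI1 and PCGF1, both PCGF subunits of Polycomb complex PRC1, and the higher ones RYBP, a PRC1 subunit, and CBX6, a chromobox protein. BMI1 had 2.16 and 1.96 CPM in PC9R, against 6.62 and 3.2 CPM in PC9 (edgeR adjusted p = 0.0392). Of 13 Trithorax genes and demethylases 2 were higher and 1 lower. KDM6A, a demethylase of the Polycomb mark, had 57.8 and 90.4 CPM in PC9R, against 31.7 and 52.9 CPM in PC9 (edgeR adjusted p = 0.0253), without overlap. NCOA6 was the other higher gene. PSIP1, which tethers MLL complexes to chromatin, was the lower one. Of 11 cohesin genes and CTCF 0 were higher and 2 lower, STAG1 and PDS5B. Beside the -0.01 over all tested genes, the median log2 fold change in the main test was -0.36 for the TALE cofactors, 0.16 for the Polycomb genes, 0.09 for the Trithorax genes and demethylases and -0.20 for cohesin and CTCF.

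Retinoic acid induces HOX genes from the 3′ end of a cluster. Of 12 tested genes of its pathway, 1 was higher (background 11.2%) and 2 lower (background 9.57%) with library number. ALDH1A1, which makes retinoic acid, had 541 and 296 CPM in PC9R, against 24 and 11.9 CPM in PC9. Its log2 fold change was 4.54 (SE 0.69, edgeR adjusted p = 0.0509), and 4.57 (SE 0.21, edgeR adjusted p = 4.01e-05) with library number. In the main edgeR test 0 genes of the list passed (background 0.253%). ALDH1A1 was the only one with an unadjusted p under 0.05 (background 7.27%). DESeq2 (background 2.75%) and limma-voom (background 0.577%) each called 1 gene of the list. CYP26B1, which degrades retinoic acid, had 0.513 and 0.178 CPM in PC9R, against 1.98 and 0.667 CPM in PC9 (edgeR adjusted p = 0.0255 with library number), and RDH10, a retinol dehydrogenase, was also lower. Of the 3′ HOX genes tested, HOXA3 was lower in PC9R with library number, and HOXA2, HOXA4, HOXB3 and HOXC4 did not pass. Of 17 other homeobox genes tested 0 passed in the main edgeR test, and 2 had an unadjusted p under 0.05. DESeq2 called 1 and limma-voom 0, beside the same backgrounds. With library number 2 were higher (background 11.2%), MSX1 among them, and 2 lower (background 9.57%), SIX2 and IRX2. SIX2 had 3.59 and 2.5 CPM in PC9R, against 37.8 and 27.6 CPM in PC9 (log2 fold change -3.43 with library number, edgeR adjusted p = 0.000168, and 0.0838 without). In the main test the median log2 fold change was 0.19 over the retinoic acid genes and -0.12 over the other homeobox genes.

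Markers of other cell types were mostly low, with up to 64.2 CPM for COL1A1 and 35.8 CPM for CDH5, and in part moved with the lines. Leukocyte markers (5 of 5 in the table) summed to 17.5 and 13.6 CPM in PC9R and 8.75 and 8.54 CPM in PC9, nearly all of it CD68. PTPRC, the defining leukocyte gene, had 0 counts in each PC9R library and 1 in each PC9 library. Endothelial markers (4 of 4) summed to 46.8 and 20.1 CPM in PC9R and 22.4 and 12.7 CPM in PC9. Most of this was CDH5, at 35.8 and 13.3 CPM in PC9R and 15.6 and 8.81 CPM in PC9. PECAM1 had 9.71 and 6.48 CPM in PC9R and 5.17 and 3.6 CPM in PC9. VWF had 1.28 and 0.297 CPM in PC9R and 1.6 and 0.267 CPM in PC9, and KDR had 1 count in each PC9R library and 0 in PC9. Fibroblast markers (5 of 5) summed to 65.2 and 14.2 CPM in PC9R and 24.4 and 6.34 CPM in PC9, nearly all of it COL1A1, and DCN had 0 counts in every library. CD68, CDH5 and COL1A1 were higher in PC9R with library number, and their part in the HOX results was not tested.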

How the data were processed

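RNA-seq, DHS and H3K4me2 data of PC9R and PC9 were used as deposited. The submitters' processing notes name hg19, TopHat, HTSeq, DESeq and MACS2 without versions or roles. The sources used here do not give the peak threshold, control library, annotation release or strand setting. Each deposited RNA file gives raw counts for 42811 RefSeq accessions, of which 41556 matched a symbol. Each deposited peak list gives a score of unstated scale, used only to rank or filter peaks within that list.

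Counts were summed per gene, and unmatched accessions, with 0.668% to 0.824% of a library's counts, were kept as rows of their own. Genes were tested two-sided in edgeR 4.0.16 under R 4.3.3 (TMM, filterByExpr, quasi-likelihood, Benjamini-Hochberg adjusted p under 0.05 over all genes). SEs were obtained as the fold change over the square root of F. Within-library folds used log CPM with a prior count of 2. The model with library number is an alternative. Starts, exons and sequences came from GENCODE 44 lifted to GRCh37, with canonical transcripts for RPKM, and gene names from RefSeq. A peak within 1 kb of any annotated start counted as at a start. Count ratios have 95% exact binomial intervals.

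Members and lists were chosen with earlier results of these data known, and the length within 2.5 kb of a start, canonical-length RPKM and the genome share of equal-length lists were chosen after the peaks and counts were seen. HOX genes averaging at least 1 CPM get values in every library, and lists give up to 4 called members. The edgeR fits were tested on simulated counts with less spread than the main test met and no difference between first and second libraries. That simulation therefore does not show how the fits behave on these libraries. Alternatives were RLE and upper quartile scaling, other filters, DESeq2 1.42.0, limma-voom (limma 3.58.1), leaving out each library, single accessions, and other peak windows, score cuts and overlaps. Some genes and sequences are not reported here.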

Additional observations from a re-analysis of the deposited data

How the results depend on the processing

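Over all genes, 32 were called in the main test, against 0 in edgeR with upper quartile scaling, where 919 had an unadjusted p below 0.05, 440 with no filter, 377 in DESeq2, 73 in limma-voom and 83 to 254 when 1 RNA library was left out. The first and second libraries share only a number, which the labels do not tie to a day or culture. With this replicate block 2631 genes were called, and 2905 with the block and RLE scaling. The biological coefficient of variation was 0.18 with and 0.498 without the block. Of the HOX genes, 0 were called in the main test, 2 with no filter, 2 in DESeq2 and 0 to 2 when a library was left out, the 2 being HOXA13 and HOXB13 without the second PC9R library. With the block 10 were called, also with RLE scaling. Of 255 log2 fold changes of HOX genes under alternatives, 10 reversed, all of genes that never passed: with upper quartile scaling HOXA2 was 0.01 and HOXC9 0.02, and when 1 library was left out HOXA2 lay between -0.92 and 0.56, HOXA11 between -0.02 and 0.09, HOXB3 between -0.72 and 0.19, HOXC4 between -1.45 and 0.08 and HOXC9 between -0.28 and 0.24. HOX genes with a DHS at a start in PC9R were 3 in the higher-scored part of the list and 2 at equal list lengths. In PC9 they were 2 within 2.5 kb, 0 at outermost coding starts and 0 in the higher-scored part. H3K4me2 covered 7.41% (20 kb added on each side), 7.16% (higher-scored part) and 7.84% (equal lengths) of the clusters in PC9R, and 10% (20 kb added) and 10.8% (higher-scored part) in PC9. DHS covered 0.329% (higher-scored part) and 0.156% (equal lengths) in PC9R, and 0.024% (20 kb added) and 0% (higher-scored part) in PC9. At 50% reciprocal overlap 20 H3K4me2 peaks of PC9R and 20 of PC9 were shared. The causes of these moves were not tested. With 2 libraries a line, and 1 per mark, small differences were not detectable here.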
